A study of Mus musculus with 8 samples.

Results

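Cebpe, Cebpb and Cebpd encode C/EBPε, C/EBPβ and C/EBPδ, CCAAT/enhancer-binding proteins of the neutrophil lineage, and they were followed through single neutrophils of mouse blood and marrow. They were taken by gene symbol and make up 3 of the 10970 genes in the table, and all 3 passed the low-count filter. The data are UMI counts (counts of distinct transcript molecules) from SCRB-seq of 1421 single cells. The study asked how a low dose of lipopolysaccharide (LPS), a bacterial endotoxin, primes neutrophils in peripheral blood (PB) and in bone marrow (BM).

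All donors were male C57BL/6J mice of 7 to 12 weeks with no engineered allele. LPS-primed cells came from mice given 0.5 mg/kg LPS intraperitoneally 4 h earlier, and PBS-primed cells from mice given buffer. In the labels the PBS samples stand at 0 h, whereas the methods describe collection 4 h after either injection. Neutrophils were enriched by negative selection and picked 1 by 1 by mouth pipette, and the sources used here do not say how many mice gave the cells of a sample or whether cells of mice were mixed. Each of the 4 groups (PBS-primed PB, LPS-primed PB, PBS-primed BM, LPS-primed BM) has 2 labelled samples, all in the batch the annotation calls 7. The other 710 cells, on 9 plates of batch 6, can be placed in a group by name but in none of the labelled samples, and are given as plates or pooled values. Because nothing says that the 2 samples of a group came from separate animals, p-values below measure the spread between these samples only.

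C/EBP proteins are basic leucine zipper factors that bind DNA as dimers at a shared palindromic element. C/EBPε acts in the marrow, where it is needed for the last steps of granulocyte maturation and for genes of the secondary (specific) granules, which are filled before a neutrophil leaves the marrow. C/EBPβ serves the increased granulocyte output of infection and many acute-phase and cytokine genes, and C/EBPδ is known as a gene of late granulocytes that inflammatory signals induce in several tissues. The following transcript stretches, read from the mouse genome NCBIM37 (mm9), are shown because they are the longest runs that pairs of the 3 genes share, with capitals for the 14 bases found in all 3. The runs lie where the transcripts encode the DNA-binding basic region.
Cebpe and Cebpb: aacaacatcgcgGTGCGCAAGAGCCG
Cebpb and Cebpd: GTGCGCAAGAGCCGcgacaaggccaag
Cebpe and Cebpd: GTGCGCAAGAGCCG

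The longest of these runs has 27 bases, against sequencing reads that are several times longer and of which the authors kept those mapping to 1 place. In the GENCODE annotation of mm9, Cebpb is a single-exon gene at chr2:167514415-167515918 on the plus strand. Of its bases, 312 (chr2:167515011-167515322) also lie in an exon of Tmem189 on the minus strand, and because the sources used here do not say whether counting used strand, reads there cannot be told apart. Tmem189 itself was counted at 0.967 to 74.9 CPM (UMIs scaled to a library total of 1000000) over the 17 plates. Cebpe lies at chr14:55329200-55331011 on the minus strand with 2 exons, and Cebpd at chr16:15887379-15888559 on the plus strand. That annotation files Cebpd under pseudogenes, although it is known as a protein-coding gene.

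The labelled samples held 83 to 92 cells and 3240559 to 8361677 UMIs each, and the plates of batch 6 held 44 to 95 cells. All 8 neutrophil markers (S100a8, S100a9, Ly6g, Csf3r, Cxcr2, Retnlg, Mmp9 and Itgam) were detected in every plate. Their summed level was 120660 to 181160 CPM in PBS-primed PB, 253390 to 311070 in LPS-primed PB, 308230 to 363110 in PBS-primed BM and 279560 to 319740 in LPS-primed BM. UMIs of other cells were most frequent in PBS-primed PB: 4 platelet markers summed to 287.6 to 2718 CPM there, to 1.41 to 124 CPM in LPS-primed PB and to at most 3.18 CPM in marrow. The 6 T or NK cell markers summed to 111 to 417 CPM in PBS-primed PB and to at most 43.1 CPM elsewhere. The 4 B cell markers stood at 80.1 to 202 CPM in PBS-primed PB, and at 0.0832 to 96.3 CPM in LPS-primed PB. Hepatocyte markers, 6 in all, were seen in the blood samples of batch 7, where they summed to 1519 and 2323 CPM with PBS and to 852 and 884 CPM with LPS. They reached at most 1.08 CPM on the blood plates of batch 6 and at most 94.2 CPM in marrow. Monocyte or macrophage markers, 6 in all, stood in the labelled blood samples at 401 and 96.6 CPM after PBS and at 122 and 212 CPM after LPS. In batch 6 they summed to 541 and 452 CPM on PBS-primed PB plates and 97.7 and 77.7 CPM on LPS-primed PB plates. In marrow they summed to 17.3 to 156 CPM. The median ERCC ratio per cell, the share or ratio of added control RNA, ran from 0.596 to 0.664 in PBS-primed PB, from 0.398 to 0.520 in LPS-primed PB and from 0.398 to 0.483 in marrow. The part of these differences in any result on blood was not tested.

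Counts were summed over the cells of a sample and compared with edgeR's quasi-likelihood test on 8478 genes, in 1 model of the 8 labelled samples with TMM scaling, and the p-values were adjusted by Benjamini and Hochberg over all these genes. CPM values are relative to the plain UMI total, without TMM. The choice of scaling matters for LPS-primed against PBS-primed PB, where the median gene had a log2 fold change of −0.11 with TMM and −1.02 with the UMI total alone. For PBS-primed PB against PBS-primed BM the same medians were 0.15 and 0.67, and for LPS-primed PB against LPS-primed BM −0.07 and −0.65. In marrow they were 0 and 0.19, and for the difference between both LPS effects −0.17 and −1.24. A fold change below is read against these medians.

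Cebpe was a marrow transcript. Its level was 114 and 300.2 CPM in the samples of PBS-primed BM (207 ± 132, SD, n = 2) and 95.5 and 165 CPM in those of LPS-primed BM (130 ± 48.9, SD, n = 2). In blood it was 8.53 and 16.7 CPM in PBS-primed PB (12.6 ± 5.75, SD, n = 2) and 2.50 and 13.1 CPM in LPS-primed PB (7.79 ± 7.48, SD, n = 2). Every blood sample was below every marrow sample.

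The plates of batch 6 had the same order. Cebpe stood at 239, 176, 201 and 298 CPM on the plates of PBS-primed BM and at 114 CPM on the single plate of LPS-primed BM. On the blood plates it stood at 28.6 and 11.1 CPM with PBS and at 20.0 and 67.2 CPM with LPS. Over both batches the 8 blood plates (2.50 to 67.2 CPM) did not overlap the 9 marrow plates (95.5 to 300.2 CPM), a lower position of blood that 1.01% of the genes tested shared. In batch 6 the distance after LPS was smaller, 2.81-fold between the pooled cells against 16.7-fold between the means of the labelled samples.

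**Figure D1:**
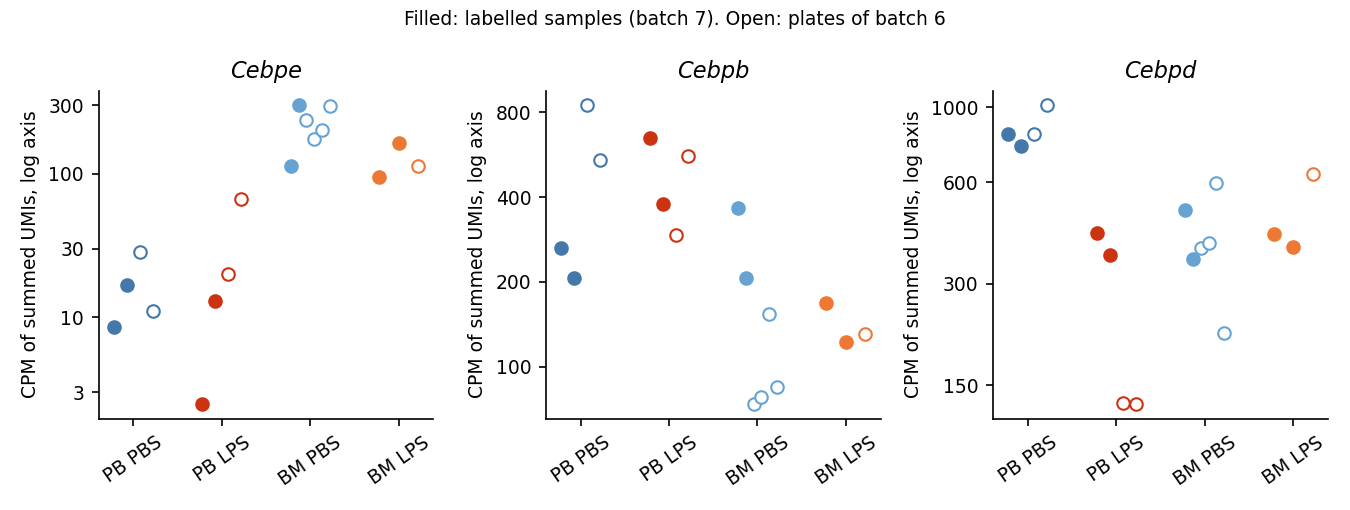
Level in CPM (log axis) of Cebpe, Cebpb and Cebpd summed over the cells of each plate, by group, with filled points for the labelled samples of batch 7 and open points for the plates of batch 6. Cebpe separates the 8 blood plates (2.50 to 67.2 CPM) from the 9 marrow plates (95.5 to 300.2 CPM), and Cebpd separates PBS-primed PB (768 to 1012 CPM) from LPS-primed PB (133 to 423 CPM).

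Between tissues without LPS, Cebpe was lower in PB than in BM by a log2 fold change of −4.58 ± 0.91 (SE, adjusted p = 0.0225). Of all genes tested in that comparison, 2.61% were called and 1.43% were called lower, and Cebpe was the only 1 of the 3 to be called. The call was lost when either PBS-primed PB sample or the second PBS-primed BM sample was left out (log2 fold changes of −4.13, −5.10 and −3.68, adjusted p = 0.205, 0.143 and 0.124) and with limma (adjusted p = 0.154). The call was kept with the UMI total alone (−4.04, adjusted p = 0.0307) and with the batch 6 cells added as pools and batch as a term (−4.40, adjusted p = 0.000535).

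After LPS, Cebpe was lower in PB than in BM by −3.45 ± 0.87 on the log2 scale, which just missed the threshold (adjusted p = 0.0558). With the batch 6 pools added the difference was −2.41 and passed (adjusted p = 0.0379), and it also passed with the UMI total alone (−4.06, adjusted p = 0.0312). It missed with limma (adjusted p = 0.270), with DESeq2's scaling in edgeR and in 6 of the 8 fits without 1 sample. LPS-primed and PBS-primed cells of the same tissue were neighbours in the order of levels and could not be separated for Cebpe. The log2 fold change with LPS was 0.26 ± 0.81 in PB (adjusted p = 0.943) and −0.87 ± 0.78 in BM (adjusted p = 0.902). Its sign in PB turned with the UMI total alone, to −0.69, and it was 1.12 (adjusted p = 0.372) with the batch 6 pools added. In batch 6 the pooled level in PB was 2.12-fold higher after LPS (40.6 against 19.2 CPM), where the means of the labelled samples were 1.62-fold lower.

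Few cells carried the blood counts of Cebpe. With each cell thinned to 5000 UMIs, a Cebpe UMI was found in 3 of 90 and 3 of 86 cells of the PBS-primed PB samples (3.33% and 3.49%, with exact 95% binomial intervals of 0.693 to 9.43% and of 0.725 to 9.86%). After LPS, 1 of 91 and 3 of 86 blood cells held one (1.10%, 0.0278 to 5.97%, and 3.49%, 0.725 to 9.86%). In PBS-primed BM the shares were 18.1% (10.5 to 28.0%) and 34.8% (25.1 to 45.4%), and in LPS-primed BM 23.1% (14.9 to 33.1%) and 22.8% (14.7 to 32.8%). These shares depend on depth: without thinning they ran from 4.40% to 69.2% over the 8 blood plates and from 50.6% to 81.0% over the 9 marrow plates, so that the ranges overlapped, at median depths of 32295 to 117374 UMIs per cell. The LPS-primed PB plates of batch 6, with 53.7% and 69.2%, had medians of 117374 and 87908 UMIs per cell. Intervals on shares cover counting error only, and because no cell type that lacks the gene was picked, a low share in blood cannot be told apart from free RNA.

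On the blood plates of batch 6 the share was 3.57% to 14.8%, and on the marrow plates 18.2% to 39.3%. The 2 highest cells held between 45.8% and 87.5% of a blood plate's Cebpe UMIs and between 23.6% and 51.9% of a marrow plate's. In marrow, too, the transcript was uneven: the median cell of PBS-primed BM in batch 7 had 13.5 CPM, the cell at the 90th percentile 459 CPM and the highest cell 5084 CPM.

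**Figure D2:**
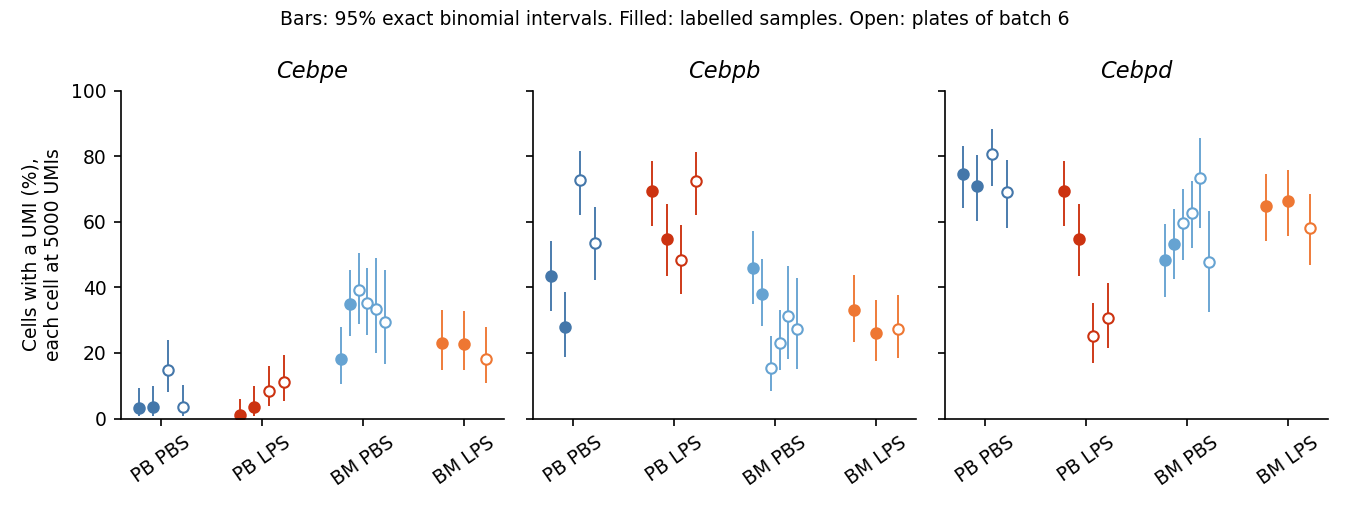
Percent of cells with at least 1 UMI of Cebpe, Cebpb or Cebpd on each plate, with each cell thinned to 5000 UMIs and bars for exact 95% binomial intervals, filled for labelled samples and open for batch 6. Cebpe was found in at most 14.8% of the cells of a blood plate and in at least 18.1% of the cells of a marrow plate.

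Cebpb had another pattern, with its highest labelled samples in blood after LPS. Blood held 645 and 377 CPM after LPS (511 ± 189, SD, n = 2) and 264 and 207 CPM after PBS (235 ± 40.3, SD, n = 2). Marrow held 168 and 122 CPM after LPS (145 ± 32.2, SD, n = 2) and 366 and 206 CPM after PBS (286 ± 113, SD, n = 2). Both LPS-primed PB samples lay above all 6 others, the second of them (377 CPM) by little over the first PBS-primed BM sample (366 CPM). Among labelled samples, 11.4% of all genes had both LPS-primed PB samples above both PBS-primed PB samples, as Cebpb did, and 12.2% had both LPS-primed BM samples below both PBS-primed BM samples, as it also did. PBS-primed PB and PBS-primed BM overlapped.

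In the labelled samples Cebpb rose with LPS in PB by a log2 fold change of 2.02 ± 0.38 (SE, adjusted p = 0.0131), in a comparison that called 3.94% of all genes, with 3.47% of all genes called higher. In BM its log2 fold change was −1.16 ± 0.37 (adjusted p = 0.518), in a comparison that called 0.0708% of all genes. Of the 3 C/EBP genes, 0 were called in BM by edgeR or by DESeq2, and 1 of them, Cebpb, had an unadjusted p under 0.05. With each cell thinned to 5000 UMIs, however, edgeR called Cebpb in BM (−1.88, adjusted p = 0.0240), where 27 of 4926 genes were called. Both LPS effects on Cebpb differed, by 3.18 ± 0.53 on the log2 scale (adjusted p = 0.0113), where 1.5% of all genes were called and 1.45% were called with the larger effect in PB. Between tissues after LPS, Cebpb was higher in PB than in BM by 2.39 ± 0.39 (adjusted p = 0.00501, 3.73% called, 3.27% higher).

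Batch 6 did not show the LPS effect on Cebpb in blood. Its blood plates held 845 and 539 CPM after PBS and 293 and 560 CPM after LPS, so that the pooled level was lower after LPS (410 against 680 CPM) where the labelled samples were higher. The monocyte or macrophage markers were also lower after LPS on these plates, as given above, and their part in the Cebpb and Cebpd levels was not tested. With the batch 6 pools added, the LPS effect in PB was 1.27 (adjusted p = 0.102) and the difference between both LPS effects 2.07 (adjusted p = 0.109), neither of them called. With the UMI total alone they were 1.11 (adjusted p = 0.141) and 2.09 (adjusted p = 0.114). The LPS effect in PB was also lost without either PBS-primed PB sample (2.15 and 1.81, adjusted p = 0.0901 and 0.161) or without the first LPS-primed PB sample (1.61, adjusted p = 0.0520), and the difference of effects without either PBS-primed PB sample or without the second LPS-primed BM sample (3.31, 2.97 and 2.98, adjusted p = 0.0601, 0.0896 and 0.0681).

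The difference of Cebpb between tissues after LPS held in both batches. The 4 plates of LPS-primed PB (293 to 645 CPM) lay above the 3 plates of LPS-primed BM (122 to 168 CPM), a higher position that 5.91% of all genes tested shared. The pooled cells of batch 6 differed 3.14-fold and the means of the labelled samples 3.52-fold. With the batch 6 pools added the call was kept (adjusted p = 0.00242), and of the 8 fits without 1 sample it was lost in 1, without the second LPS-primed BM sample (2.19, adjusted p = 0.0732). Without LPS the batches disagreed: PB against BM was −0.79 ± 0.37 (adjusted p = 0.283) in the labelled samples, where the means differed 1.21-fold with BM higher, and in batch 6 the pooled level was 7.37-fold higher in PB. With each cell thinned to 5000 UMIs the labelled samples gave −1.49, which was called (edgeR, adjusted p = 0.0196). The batch 6 plates of PBS-primed BM held 74.1, 78.3, 153 and 85.2 CPM of Cebpb and that of LPS-primed BM 131 CPM.

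Cebpb was spread over more of the blood cells. At 5000 UMIs per cell, a Cebpb UMI was found in 69.2% (58.7 to 78.5%) and 54.7% (43.5 to 65.4%) of cells of the LPS-primed PB samples, and in 43.3% (32.9 to 54.2%) and 27.9% (18.8 to 38.6%) of PBS-primed PB cells. In marrow the shares were 45.8% and 38.0% with PBS and 33.0% and 26.1% with LPS. In batch 6 the PBS-primed PB plates were already at 72.7% and 53.6%, next to 48.4% and 72.5% with LPS.

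Cebpd was highest in resting blood. Blood held 834 and 768 CPM after PBS (801 ± 46.3, SD, n = 2) and 423 and 365 CPM after LPS (394 ± 41.1, SD, n = 2). Marrow held 496 and 355 CPM after PBS (426 ± 99.9, SD, n = 2) and 420 and 385 CPM after LPS (403 ± 25.04, SD, n = 2). Apart from PBS-primed PB, the groups overlapped one another in these samples.

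In batch 6, Cebpd stood at 831 and 1012 CPM in PBS-primed PB and at 133 CPM on each LPS-primed PB plate. PBS-primed BM plates had 383, 397, 596 and 214 CPM, and the LPS-primed BM plate 634 CPM. The LPS-primed PB plates of this batch were the lowest of all 17.

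All 4 plates of LPS-primed PB were below all 4 plates of PBS-primed PB for Cebpd on the CPM scale, a position that 17.8% of all genes tested shared. With TMM the log2 fold change was −0.11 ± 0.26 (adjusted p = 0.903), at the median of all genes, and with the UMI total alone it was −1.03 (adjusted p = 0.0540), again at the median. Cebpd was therefore not separated from the bulk of genes in the labelled samples. With the batch 6 pools added its log2 fold change was −0.56 (adjusted p = 0.380), where the median of all genes was −0.19. In batch 6 the pooled level was 6.99-fold lower after LPS, against 2.03-fold between the means of the labelled samples. In marrow its LPS effect was −0.26 ± 0.26 (adjusted p = 0.927), and the difference between both effects was 0.15 ± 0.37 (adjusted p = 0.965). Both signs turned with the batch 6 pools added, to 0.10 and −0.67. The difference also turned with the UMI total alone, to −0.95, and none of these values was called.

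Across tissues without LPS, all 4 PBS-primed PB plates were above all 6 PBS-primed BM plates for Cebpd, as were 9.11% of all genes tested, and the log2 fold change was 0.40 ± 0.26 (adjusted p = 0.456). After LPS it was 0.55 ± 0.26 (adjusted p = 0.307) with TMM and −0.03 with the UMI total. With the batch 6 pools added it was −0.15, and the pooled level of batch 6 was 4.78-fold lower in PB. A Cebpd UMI was found at 5000 UMIs in 74.4% and 70.9% of PBS-primed PB cells, 69.2% and 54.7% of LPS-primed PB cells, 48.2% and 53.3% of PBS-primed BM cells and 64.8% and 66.3% of LPS-primed BM cells. In batch 6 the shares of LPS-primed PB were 25.3% (16.9 to 35.2%) and 30.8% (21.5 to 41.3%).

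**Figure D3:**
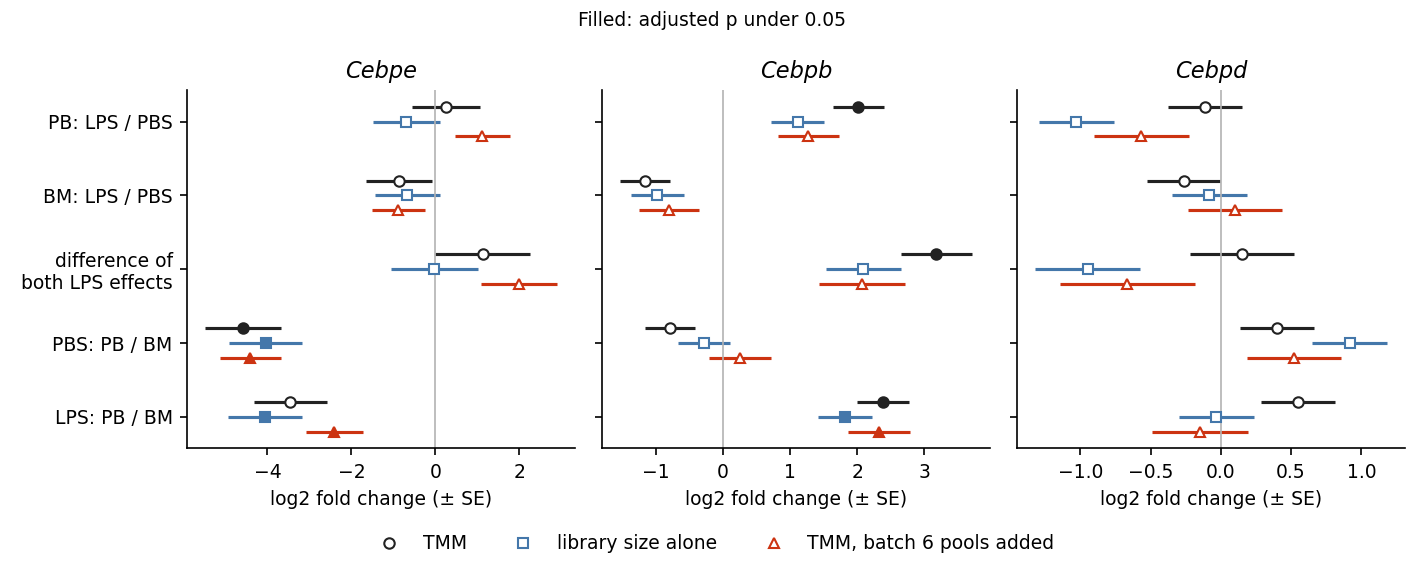
Log2 fold changes (points, with bars of 1 SE) of Cebpe, Cebpb and Cebpd in 5 comparisons from edgeR, for the 8 labelled samples with TMM (circles), with the UMI total alone (squares) and with the pooled cells of batch 6 added (triangles), filled where the adjusted p was under 0.05. Cebpe is lower in PB than in BM in both comparisons of tissues under each of the 3 fits, and the LPS effect on Cebpb in PB is called in the first fit only.

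The remaining genes of the family gave no call. Cebpa, the factor of granulocyte commitment, ran from 0.143 to 27.2 CPM over the 17 plates. Cebpg, a partner without a strong activation domain, ran from 10.1 to 103 CPM, and Ddit3 (CHOP), a stress-induced family member, from 2.63 to 108 CPM. With the 3 C/EBP genes above, 6 family genes were tested, and those called were Cebpe and Cebpb alone: 1 each for LPS in PB (3.94% of all genes called), the difference of LPS effects (1.5%), PBS-primed PB against BM (2.61%) and LPS-primed PB against BM (3.73%), and 0 for LPS in BM (0.0708%). In each of the 4 comparisons with a call the count fell to 0 without 1 of the samples named above for that call. Their median log2 fold change was 0.07 for LPS in PB, where that of all genes was −0.11, and 0.14 for PBS-primed PB against BM, where that of all genes was 0.15.

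Within marrow, cells with and without Cebpe were set side by side on each plate as a description, with every cell at 5000 UMIs, so that counts of other genes compare at equal depth. Cells with a Cebpe UMI had fewer Cebpb UMIs on all 9 marrow plates, with a median log2 ratio of −1.55 (range −2.72 to −0.23). Of the 1561 genes with a UMI in both sets of cells on every marrow plate, 2.95% were lower on all 9 plates and 1.67% higher on all 9. On the second LPS-primed BM sample, 21 cells with Cebpe held 0.143 Cebpb UMIs on average and the 71 without held 0.944, and a Cebpb UMI was found in 9.52% and 31.0% of them. On the first batch 6 plate of PBS-primed BM these shares were close, 15.2% and 15.7%. Over the 9 plates the cells with Cebpe held 99 Cebpb UMIs in all. The Spearman correlation of both genes' shares of a cell's UMIs, without thinning, over the cells of a plate was −0.238 to −0.0876 in the 4 labelled samples and −0.147 to 0.152 on the batch 6 plates. On the batch 6 plates 3 to 7 cells held both transcripts, close to the 3.55 to 7.39 that the product of their shares gives, and in the labelled samples 2 to 10 held both against 5.48 to 12.2. Cebpd had no common direction, with more UMIs in Cebpe-carrying cells on 4 plates and fewer on 5.

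Of the 12 secondary and tertiary granule genes, 6 were higher in the Cebpe-carrying cells of all 9 plates and the other 6 had no direction common to all plates, beside the 1.67% of the 1561 genes that were higher on all 9. Cells with a Cebpe UMI held more Camp (the antimicrobial cathelicidin), Ltf (lactoferrin), Ngp (neutrophilic granule protein) and Chil3 (a chitinase-like protein) on all 9 plates, with median log2 ratios of 1.53, 1.28, 1.24 and 1.71. Lcn2 (lipocalin 2, which binds bacterial siderophores) and Cd177, a surface protein, were also higher on 9 of 9 plates, by 0.58 and 0.36. Mmp8 and Mmp9, which encode a collagenase and a gelatinase, had medians of −0.06 and 0.11, with 3 and 5 of 9 plates higher. Haptoglobin (Hp) was higher on 5 plates and lower on 4, and Itgb2l, an integrin subunit gene, higher on 7 and lower on 2. Fcnb was higher on 6 plates and lower on 3, of which 3 had no Fcnb UMI in 1 of the sets of cells and at most 5 in the other. Olfm4 was lower on 6 of 8 plates, with a median of −1.47, and had 140 UMIs in all in cells with Cebpe and 748 in cells without.

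Of the remaining genes looked at, which form no list and were named after their values were seen, 3 were lower in the Cebpe-carrying cells of all 9 plates, as were 2.95% of the 1561 genes: Cxcr2, the chemokine receptor that draws neutrophils into blood, by a median of −1.04, Csf3r, the G-CSF receptor, by −1.20 and Retnlg by −0.74. Il1b was lower on 7 plates and higher on 2, with a median of −1.29. S100a8 had a median of −0.02, with 4 plates up and 5 down. Hmgb2 was higher on 3 plates and lower on 5. Mki67 had UMIs in both sets of cells on 5 plates and was higher on these 5. It held 30 UMIs in all in cells with Cebpe and 58 in cells without. Top2a, Stmn1, Birc5, Gfi1 and Cebpa, also looked at, held at most 22 UMIs in either set over the 9 plates. The total UMIs of a marrow cell went with the share of its UMIs that were Cebpe, without thinning, on each plate (Spearman correlation over the 44 to 92 cells of a plate, 0.173 to 0.485), and the part of depth in the contrasts above was not tested. On the same plates and the same scale the correlation of Cebpe with Camp was 0.195 to 0.542 while that of Cebpb with Camp was −0.511 to −0.0568. That of Cebpd with Camp was also below 0 on each plate, at −0.229 to −0.00313. These correlations are over cells that share a library and are given as descriptions.

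**Figure D4:**
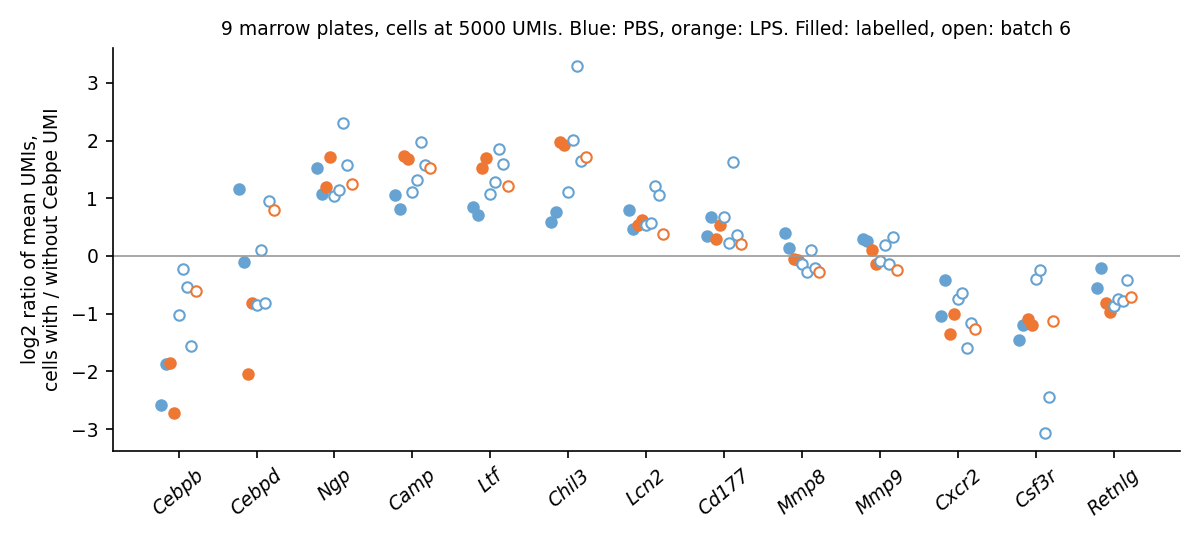
Log2 ratio of mean UMIs per cell between marrow cells with and without a Cebpe UMI, for 13 genes on each of the 9 marrow plates, with every cell thinned to 5000 UMIs, blue for PBS, orange for LPS, filled for labelled samples and open for batch 6. Cebpb lies below 0 on all 9 plates and Camp, Ltf, Ngp and Chil3 above 0 on all 9.

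In the authors' clusters of marrow cells Cebpe and Cebpb were also high in different sets, although the clusters were made from the expression of these same cells and are no test. In batch 7, 162 PBS-primed BM cells of cluster 0 held 233 CPM of Cebpe and 248 CPM of Cebpb, and 13 cells of cluster 1 held 12.2 and 630 CPM. In batch 6, cluster 0 (236 cells) held 227 and 63.0 CPM and cluster 1 (28 cells) 32.9 and 567 CPM. Cebpd stood at 388 CPM in cluster 0 and 781 CPM in cluster 1 in batch 7, and at 381 and 835 CPM in batch 6. In LPS-primed BM of batch 7, cluster 0 (170 cells) held 136 CPM of Cebpe, 138 CPM of Cebpb and 402 CPM of Cebpd, and cluster 1 (12 cells) 4.93, 325 and 435 CPM. Among LPS-primed PB cells of batch 7, the 84 in cluster 2 held 217 CPM of Cebpd and the 83 in cluster 1 held 710 CPM, and the 185 cluster 2 cells of batch 6 held 133 CPM, while Cebpb was 521, 537 and 411 CPM in the same sets.

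Of the 12 secondary and tertiary granule genes, which include known C/EBPε targets, 10 were lower in PBS-primed PB than in PBS-primed BM, with 1.43% of all genes called lower, and 0 were called higher, with 1.18% of all genes called higher. Ltf differed by −10.94 ± 0.42 (adjusted p = 1.83e-07), Chil3 by −10.73 ± 0.50 (6.89e-07) and Camp by −9.56 ± 0.32 (8.22e-08). Ngp differed by −8.56 ± 0.49 (2.96e-06) and Olfm4, the mark of a neutrophil subset, by −8.68 ± 1.59 (0.0148). The median log2 fold change of the list was −6.64. With the batch 6 pools added 11 were called lower (227 of 8622 genes), and limma with voom called 4 in all (370 of the 8478 genes).

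With LPS most of these genes rose in blood. In LPS-primed PB 10 of the 12 rose over PBS-primed PB and 0 fell, with a median log2 fold change of 4.24, where 3.47% of all genes were called higher and 0.472% lower. Chil3 rose by 9.81 ± 0.48 (adjusted p = 8.56e-07), Ltf by 8.90 ± 0.39 (3.78e-07), Camp by 7.59 ± 0.30 (3.24e-07) and Ngp by 7.37 ± 0.46 (5.60e-06). The log2 fold change of Cebpe in the same comparison was 0.26 ± 0.81 (adjusted p = 0.943), and 1.12 (adjusted p = 0.372) with the batch 6 pools added. In CPM, Camp was 34.3 and 35.2 in PBS-primed PB and 3480 and 3621 in LPS-primed PB, below the 12693 and 16811 CPM of LPS-primed BM. The paper reports that neutrophils leave the marrow after LPS, so the cells found in blood may differ between these groups. A change in which cells are in blood and a change within blood cells cannot be told apart here, and neither was tested. With the batch 6 pools added the counts were also 10 and 0 (508 and 143 of 8622 genes). On the batch 6 plates Camp went from 242 and 156 to 7425 and 5571 CPM. Limma with voom called 3 of the 12, with 265 of all 8478 genes called higher and 44 lower. The UMI total alone gave 9 higher and 1, Mmp9, lower, with 140 of all genes called higher and 268 lower.

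For 9 of the 12 granule genes the LPS effect was larger in PB than in BM by the test of the difference, in which 1.45% of all genes were called larger in PB. The UMI total alone gave 7, with 45 of all 8478 genes called larger in PB and 19 smaller. Limma with voom called 2, with 79 of all genes called larger in PB and 6 smaller. In marrow itself edgeR called 0 of the 12 with LPS and DESeq2 0 (6 and 191 of all genes), while 1 had an unadjusted p under 0.05, as did 684 of the 8478 genes tested. Between both LPS-primed tissues, Ltf (−1.80 ± 0.28), Camp (−1.47 ± 0.22) and Mmp9 (−1.21 ± 0.18) were lower in PB and Lcn2 (1.23 ± 0.18) and Hp, haptoglobin (1.31 ± 0.18), were higher, with adjusted p from 0.00214 to 0.00400, and 0.46% of all genes were called lower and 3.27% higher. Of these, Mmp9 was still called with the batch 6 pools added (adjusted p = 0.000397), and Ltf (adjusted p = 0.120) and Camp (adjusted p = 0.0527) were not. With the UMI total alone neither Lcn2 (0.65, adjusted p = 0.0527) nor Hp (0.72, adjusted p = 0.0519) was called.

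Promoter sequence was examined because these genes moved together. RefSeq promoter windows (build GRCm38.p6, 250 bases before to 50 after the gene start) were found for 10 of the 12 granule genes, and they were searched for TTGCNNAA on both strands, which reads TTNNGCAA from the other strand and is a relaxed form of the C/EBP element. The element was found in 5 of the 10, and in 3298 of the 27025 genes of the promoter table (12.2%). The stretches below are 30 bases around each match, on the strand of the gene, with the element in capitals.
Ltf, chr9:111019206-111019235, plus strand: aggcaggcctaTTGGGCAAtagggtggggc
Ngp, chr9:110419659-110419688, plus strand: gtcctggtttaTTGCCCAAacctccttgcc
Ngp, chr9:110419786-110419815, plus strand: accggcagttcTTGGGCAAggcagtctcaa
Lcn2, chr2:32387937-32387966, minus strand: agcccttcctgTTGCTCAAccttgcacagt
Mmp8, chr9:7558399-7558428, plus strand: ttaggcagaagTTGCTCAAgatgtagcttt
Fcnb, chr2:28085095-28085124, minus strand: caaggcaggccTTTTGCAAacagaggtgcc
Fcnb, chr2:28084983-28085012, minus strand: ttttaggtctcTTGTGCAAccagaggcctc

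The elements begin between 235 and 11 bases before the gene start. Ltf, Ngp, Lcn2 and Mmp8 were among the genes called in both blood comparisons above, and Fcnb (ficolin B, a lectin) was called in neither. Camp and Chil3, with fold changes as large, are not among the 5. The same holds for any granule gene without a window, and whether Camp and Chil3 had one is not given here. Of the 9 inflammatory genes of the list below with a window, 2 held the element, Ptgs2 and Saa3. Of the C/EBP genes themselves only Cebpb of the 3 was matched to a window, and these letters are not in it.

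The 12 inflammatory genes, many of them known to be bound by C/EBP factors, were listed beside C/EBPβ and C/EBPδ. With LPS in PB 6 rose and 0 fell, with a median of 4.06, where 3.47% of all genes were called higher. With the UMI total alone 6 were higher and 1, Il1b, lower (140 and 268 of the 8478 genes). The 6 that rose were Saa3, an acute-phase serum amyloid, by 8.16 ± 1.004 (adjusted p = 0.000838), the chemokines Ccl4 by 6.51 ± 0.66 (0.000206) and Cxcl2 by 5.01 ± 0.89 (0.00929) and Ccl3 by 4.83 ± 0.89 (0.0113), the LPS co-receptor Cd14 by 4.51 ± 0.71 (0.00423) and the interleukin-1 antagonist Il1rn by 3.44 ± 0.31 (0.000101). In BM edgeR called 0 of the 12 and DESeq2 2, and 5 had an unadjusted p under 0.05, where edgeR called 6 of all 8478 genes, DESeq2 191, and 684 had an unadjusted p under 0.05. Without the second PBS-primed BM sample edgeR called 2 of the 12 in BM. In PB the count was 3 and 4 without the first and second PBS-primed PB sample, and 6 to 8 without any other sample.

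Between LPS-primed tissues, where Cebpb also differed, 8 of the 12 inflammatory genes were higher in PB (3.27% of all genes called higher) and 0 lower, Ccl4 by 12.59 ± 0.88, Saa3 by 10.79 ± 1.14, Ccl3 by 8.67 ± 1.07 and Cd14 by 4.69 ± 0.71. Without LPS, where Cebpb was called with thinned cells only, 3 were higher in PB, where 1.18% of all genes were called higher: Ccl4 by 5.21 ± 0.71 (adjusted p = 0.00271), Il1b, the interleukin-1β gene, by 3.53 ± 0.22 (6.06e-06) and Socs3 by 3.53 ± 0.47 (0.00235). Some fits without 1 sample called more of the 12 higher.

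The G-CSF and IL-6 receptor pathway signals through STAT3 to the C/EBP genes, and 11 of its 12 listed genes were tested. With LPS 0 were called in PB and 0 in BM by edgeR (3.94% and 0.0708% of all genes called), and 2 and 1 by DESeq2 (1047 and 191 of the 8478 genes), with 3 and 2 at an unadjusted p under 0.05 (1421 and 684 of the 8478). In PB 2 were higher without either PBS-primed BM sample, 1 without the second LPS-primed PB sample and 1 with the batch 6 pools added, and 1 was lower with the UMI total alone. The fit with the pools called 508 of 8622 genes higher, and that with the UMI total 268 of 8478 lower. Csf3r was higher in PB than in BM without LPS by 1.31 ± 0.24 (adjusted p = 0.0158) and with LPS by 1.42 ± 0.24 (0.00742), and Socs3, the feedback inhibitor of this pathway, by 3.53 ± 0.47 and 3.14 ± 0.46 (0.00287). Of all genes, 1.18% and 3.27% were called higher in these comparisons. The count of 2 fell to 1 without either PBS-primed PB sample in the comparison without LPS, and to 1 without the second LPS-primed BM sample, and with the UMI total alone, in the comparison after LPS. EdgeR called Stat3 in none of the 5 comparisons.

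Of 22 further transcription factors of the lineage, 4 rose and 1 fell with LPS in PB, where 3.47% of all genes were called higher. Id1 (4.34 ± 0.62) and Id2 (2.96 ± 0.32), inhibitors of helix-loop-helix factors, Mxd1 (2.12 ± 0.20), a MYC antagonist of differentiated granulocytes, and Etv6 (3.37 ± 0.78) were higher, with adjusted p from 0.000125 to 0.0380, and Fos, an immediate early gene, fell by 1.62 ± 0.39 on the log2 scale (adjusted p = 0.0472), with 0.472% of all genes called lower. The call on Fos was kept in 3 of the 8 fits without 1 sample. Without LPS, Egr1 (4.91 ± 1.05), Klf2 (2.43 ± 0.26), Fos (2.31 ± 0.40) and Junb (2.17 ± 0.26) were higher in PB than in BM, with 1.18% of all genes called higher. In LPS-primed cells 8 were higher in PB and 1 lower, with 3.27% and 0.46% of all genes called so, the largest being Irf5 (4.79 ± 1.07, adjusted p = 0.0320), Fos (2.75 ± 0.41, 0.00329) and Id1 (2.53 ± 0.57, 0.0333), with Ets1 lower at −6.02 ± 1.28 (0.0241). With the UMI total alone 4 were higher and 1 lower (157 and 106 of the 8478 genes). Without the first and second LPS-primed BM sample the counts were 4 and 5 higher and 0 lower. For the comparison without LPS, 2 were higher without the first PBS-primed PB sample, and 2 were higher and 1 lower without the second. With LPS in BM edgeR called 0 and DESeq2 2, and 3 were at an unadjusted p under 0.05 (6, 191 and 684 of the 8478 genes). There 1, Fos, was called lower with the batch 6 pools added (adjusted p = 0.0156) and in 3 of the 8 fits without 1 sample.

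Of 8 primary granule genes 6 were in the table and 2 passed the filter (Prss57 and Ctsc), and edgeR called neither in any of the 5 comparisons. DESeq2 called 1 of them in PBS-primed PB against BM, where 1 had an unadjusted p under 0.05 (942 and 1569 of the 8478 genes). For the difference of both LPS effects DESeq2 called 0, with 1 at an unadjusted p under 0.05 (487 and 1132 of the 8478 genes). Of 14 cell cycle genes 8 passed, and 0 were called by edgeR in the 5 comparisons, which called 0.0708% to 3.94% of all genes. At most 2 had an unadjusted p under 0.05, as did 684 to 1569 of the 8478 genes. DESeq2 called at most 2, and 191 to 1047 of the 8478 genes. With the UMI total alone 1 was lower for LPS in PB and 1 for LPS-primed PB against BM (268 and 106 of the 8478 genes). With the batch 6 pools added 1 was lower for LPS-primed PB against BM (116 of 8622 genes).

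**Figure D5:**
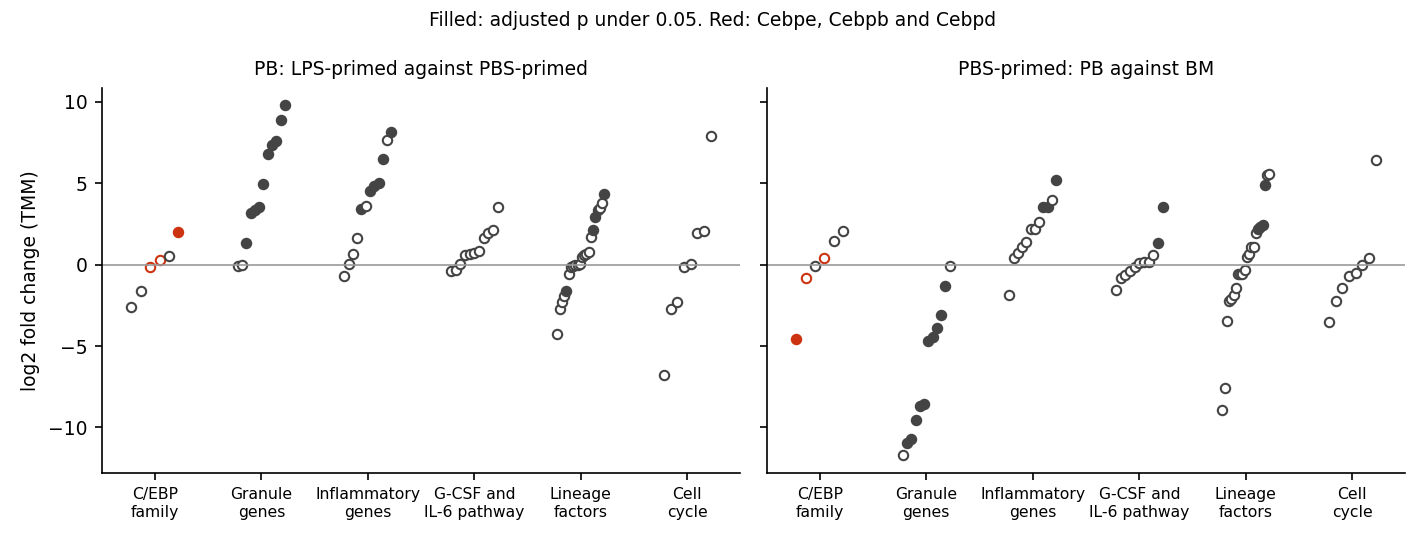
Log2 fold changes (edgeR with TMM, 8 labelled samples) of each tested gene in 6 lists, for LPS-primed against PBS-primed PB and for PBS-primed PB against PBS-primed BM, filled where the adjusted p was under 0.05 and red for Cebpe, Cebpb and Cebpd. The granule genes lie up to 9.81 above 0 with LPS in PB and down to −10.94 among those called in PB against BM, while Cebpe lies at 0.26 and −4.58.

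The genes whose profile over the 8 labelled samples was nearest to that of each C/EBP gene were taken from 3371 genes with at least 50 CPM in their highest group, by the root mean square (RMS) difference of centred log2 CPM. For Cebpe they were, from the nearest, Pnpla8 (RMS 0.71), Lta4h, Zdhhc3, Tkt and Rab3d (1.04), where the median gene was at 2.40. Lta4h, the enzyme that makes leukotriene B4, had 197 and 504 CPM in PBS-primed BM and 25.8 and 7.41 CPM in PBS-primed PB. In the plates of batch 6, which took no part in the choice, Lta4h, Rab3d (a small GTPase of secretory granules) and Tkt (transketolase) came 16th, 20th and 22nd of the same genes, and Zdhhc3 and Pnpla8 167th and 447th.

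For Cebpb the nearest were H2-K2 (RMS 0.26), Ezr (0.33), Ehd1 (0.36), Stfa2l1 (0.42) and Snx20 (0.44), with the median gene at 1.24. In batch 6, Snx20 and Ezr, the membrane-cytoskeleton linker ezrin, came 83rd and 89th and H2-K2 2425th. For Cebpd they were Rpl23a (0.11), Taf12 (0.12), Clta (0.15), Rbm25 (0.15) and Arhgap45 (0.17), with the median gene at 0.88, and in batch 6 they came between 249th and 1254th.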

How the data were processed

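Single mouse neutrophils from blood and marrow, primed with PBS or LPS, were measured by SCRB-seq. Per the labels and methods, the authors trimmed reads with Cutadapt 1.15, aligned them to mm9 with STAR 2.6.0a, removed duplicates by UMI and counted the uniquely mapped ones with HTSeq 0.11.2. The deposited table holds these counts per gene and cell, not normalized. The gene annotation and the use of strand are not given in the sources used here. The authors also deposited a cluster number and an ERCC ratio per cell, a fraction whose denominator is not given.

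The 1421 cells sit on 17 plates, whose 95 barcodes are all used on 2 or more plates. Names of 711 cells match the 8 labelled samples (batch 7), and those of 710 cells (batch 6) give a group only. Doublets were not called, since cells were picked singly. UMIs of genes seen in at least 10 cells were summed per sample, since cells are not replicates, and tested with edgeR 4.0.16 (filterByExpr, TMM, glmQLFTest; R 4.3.3) in 1 model of 4 groups, two-sided, with Benjamini-Hochberg adjusted p under 0.05 as called. The common dispersion was 1.06. The counts of replicates of a group differed by more than sampling noise (chi-square per degree of freedom 59.9 to 106). The fit was tested on simulated data for LPS-primed against PBS-primed PB (8183 genes), where it recovered 20.9% of 4-fold, 59.7% of 16-fold and 68.2% of 64-fold changes, with 3.88% of 103 calls wrong. Cells were thinned to 5000 UMIs for shares, with exact Clopper-Pearson intervals (scipy 1.17.1). Alternatives used DESeq2 1.42.0, limma 3.58.1 with voom, other scaling and filters, thinned cells, samples left out, a replicate block and the batch 6 cells.

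Named genes are the 3 C/EBP genes, the rest of the family, up to 4 called genes with the largest fold change per list and comparison (with Ltf, Camp and Ngp), and the 5 genes of nearest profile. Values of further list genes (Mmp9, Lcn2, Hp, Mmp8, Cd177, Cxcr2, Csf3r, Retnlg, Il1b and the like) were named after they were seen. The members and lists were chosen with earlier results of these data known.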

Additional observations from a re-analysis of the deposited data

Results flagged for a closer look

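The LPS effects on Cebpb in PB and in BM differed by 3.18 ± 0.53 on the log2 scale by the test of the difference (edgeR, adjusted p = 0.0113), with a rise of 2.02 in PB and a log2 fold change of −1.16 in BM that was not called. The value in BM ran from −1.50 to −0.72 when 1 sample was left out, and was −0.35 over the 17 plates, an alternative chosen after seeing the data. With each cell thinned to 5000 UMIs it was −1.88 and was called (edgeR, adjusted p = 0.0240). Both LPS-primed PB samples were above both PBS-primed PB samples (377 and 645 against 207 and 264 CPM), and both LPS-primed BM samples were below both PBS-primed BM samples (122 and 168 against 206 and 366 CPM). In batch 6, which this test did not use, the pooled level moved the other way in both tissues, 1.66-fold lower with LPS in PB and 1.41-fold higher in BM. Markers of platelets and of T or NK cells were highest in PBS-primed PB in both batches, and monocyte or macrophage markers went from 541 and 452 CPM to 97.7 and 77.7 CPM with LPS on the blood plates of batch 6. In the labelled blood samples the monocyte or macrophage markers overlapped (401 and 96.6 CPM with PBS, 122 and 212 CPM with LPS). Hepatocyte markers there were at 1519 and 2323 CPM with PBS and at 852 and 884 CPM with LPS. Their part in the difference was not tested.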

How the results depend on the processing

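For the 3 C/EBP genes in 5 comparisons, 220 of 270 alternative values kept direction and side of the threshold, and no called result changed sign. The cause of the changes below was not tested.

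Cebpe after LPS, PB against BM, passed the threshold with DESeq2 (−3.43), the UMI total alone (−4.06), no filter (−3.47), a filter of 10 CPM (−3.47), cells thinned to 5000 UMIs (−3.58), batch 6 pools (−2.41) and, chosen after seeing the data, 17 plates as units (−2.07). It missed with limma (−3.91), with DESeq2's scaling in edgeR and in 6 of the 8 fits without 1 sample. Cebpe without LPS, PB against BM, was not called with limma (−4.58). Its LPS effect in PB turned to −0.12 (limma), −0.69 (UMI total) and −0.92 (thinned), and was larger with batch 6 pools (1.12) and 17 plates (1.47), and its difference of LPS effects to −0.022 (UMI total) and −0.083 (thinned).

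The LPS effect on Cebpb in PB lost its call at 1.11 (UMI total), 1.27 (batch 6 pools) and 0.91 (17 plates), and the difference of its LPS effects at 2.09, 2.07 and 1.26. Its LPS effect in BM, not called, was −0.80 with pools and −0.35 with plates, and that of Cebpd in PB −0.56 and −0.85. Thinned cells gave calls for Cebpb with LPS in BM (−1.88) and in PBS-primed PB against BM (−1.49), where batch 6 turned the sign (0.26 with pools, 1.09 with plates). Cebpd turned to 0.10 with LPS in BM (pools and plates), to −0.95 (UMI total), −0.67 (pools) and −0.94 (plates) for the difference of LPS effects, and to −0.031, −0.15 and −0.37 for LPS-primed PB against BM.

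Replicate numbers did not pair the samples (correlations of deviations from −0.0271 to 0.00518). With the replicate block, Cebpe in LPS-primed PB against BM was called (−3.78, adjusted p = 0.00376), its LPS effect in PB was −0.038, and no other call of the 3 genes changed. The block moved the genes called with LPS in BM from 2 higher and 4 lower to 7 and 6.

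Leaving out 1 sample gave ranges of −1.48 to 0.996 (Cebpe, LPS in PB), −1.42 to 0.035 (Cebpe, LPS in BM), −0.59 to 1.88 (Cebpe, difference), −5.13 to −3.68 (Cebpe, PBS-primed PB against BM), −5.17 to −2.69 (Cebpe, LPS-primed PB against BM), 1.61 to 2.29 (Cebpb, LPS in PB), −1.50 to −0.72 (Cebpb, LPS in BM), 2.74 to 3.52 (Cebpb, difference), 2.01 to 2.68 (Cebpb, LPS-primed PB against BM) and −0.075 to 0.35 (Cebpd, difference). Such a fit has 1 group with 1 sample, assumed to vary like the others.

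The genes called with LPS in PB, LPS in BM, the difference, PBS-primed and LPS-primed PB against BM were 334, 6, 127, 221 and 316 by edgeR, 1047, 191, 487, 942 and 930 by DESeq2, 408, 10, 64, 297 and 263 with the UMI total and 651, 27, 203, 416 and 532 with batch 6 pools. Calls with LPS in PB were 294 higher and 40 lower with TMM and 140 and 268 with the UMI total. The same pairs were 123 and 4 against 45 and 19 for the difference, 100 and 121 against 213 and 84 for PBS-primed PB over BM, and 277 and 39 against 157 and 106 for LPS-primed PB over BM. Limma with voom called 370 genes for PBS-primed and 536 for LPS-primed PB against BM. Cebpe in blood rests on 16 to 77 UMIs a sample, which limits its precision.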
